A study of Homo sapiens with 15 samples.

Results

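The interferon-induced genes IFIT1, GBP2, MX1, SAMD9L and TRIM22 were followed through the transcriptomes of WI-38 cells, a human fetal lung fibroblast line with a limited lifespan in culture. They are 5 of the 4872 genes in 4 deposited tables and were found there by gene name. They had been selected on their signals and calls in these same tables, so their differences from the control describe that choice and were not tested again. The 15 libraries form 5 groups of 3, and each table sets one group against the PD45 control. PD is read as population doublings. The groups are a PD30 control, the PD45 control (the cells the study calls senescent), PD45 cells given siSRC2, PD45 cells given siSRC4, and PD45 cells given GW8510, a kinase inhibitor. The siRNAs target SRC, a non-receptor tyrosine kinase gene, and siSRC2 and siSRC4 are read from the sample names as 2 siRNAs. All groups received the transfection reagent lipo3000, and all but the GW8510 group received DMSO. NC, taken to be a control siRNA, is named for the PD45 control and GW8510 groups but not for PD30. Passage and NC cannot be told apart in the PD30 comparison, nor GW8510 and the missing DMSO in the GW8510 comparison. Dose and duration are not in the labels. The table headed siSRC holds libraries named siSRC2, and the table headed siSRC2 holds libraries named siSRC4, and the library names were followed.

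Interferons are secreted proteins that alert cells to viruses. Type I interferons bind the IFNAR receptor and, through the kinases JAK1 and TYK2, activate transcription factors that bind a DNA element called the ISRE. Type II interferon acts mainly through another element, called GAS. Cells without interferon keep a low level of many of these transcripts, and senescent fibroblasts are known to switch on part of this programme through the sensing of DNA in the cytoplasm.

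By the authors' own test, a table lists a gene if its adjusted p is at most 0.05 and its fold at least 1.5, up or down. A gene that a table does not list has no value in that group here and is not shown to be unchanged. IFIT1 and GBP2 are each in 2 tables and the other three in 1, which gives 7 entries: IFIT1 for PD30 and GW8510, GBP2 for PD30 and siSRC2, TRIM22 for PD30, and MX1 and SAMD9L for siSRC4. Values are the deposited normalized signal per library, given as mean ± SD (n = 3), and a fold is the ratio of 2 such means, except where the authors' deposited table is the stated source. The headers do not say whether the signal is TPM or FPKM, so levels are compared within a gene and not between genes. Read depth is unknown. The smallest of the 7 entries by the authors' deposited fold were GBP2 with siSRC2 and MX1 with siSRC4, at 1.72 and 1.74, where the limit is 1.5. No entry outside the limit can be given.

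Promoter windows are shown for 3 of the 5 genes. Some hold letters that match elements through which interferon acts, and the SAMD9L window does not. The windows run from 250 bases before an annotated transcript start to 50 bases into the transcript and come from RefSeq (GRCh38.p14). GBP2 and TRIM22 are without a window in that table. Capitals mark matches on either strand to the ISRE letters (GAAA, any 2 bases, GAAA) or the GAS letters (TTC, any 3 bases, GAA). The sequences are written 5′ to 3′ on the strand of the gene.
IFIT1 (chr10:89392373-89392672, plus strand): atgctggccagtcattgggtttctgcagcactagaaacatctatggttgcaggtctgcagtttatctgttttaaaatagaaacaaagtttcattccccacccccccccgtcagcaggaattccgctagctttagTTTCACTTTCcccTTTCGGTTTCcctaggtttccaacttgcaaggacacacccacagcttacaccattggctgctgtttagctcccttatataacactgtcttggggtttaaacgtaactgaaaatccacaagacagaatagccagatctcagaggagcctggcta
MX1, at the first annotated start (chr21:41420308-41420607, plus strand): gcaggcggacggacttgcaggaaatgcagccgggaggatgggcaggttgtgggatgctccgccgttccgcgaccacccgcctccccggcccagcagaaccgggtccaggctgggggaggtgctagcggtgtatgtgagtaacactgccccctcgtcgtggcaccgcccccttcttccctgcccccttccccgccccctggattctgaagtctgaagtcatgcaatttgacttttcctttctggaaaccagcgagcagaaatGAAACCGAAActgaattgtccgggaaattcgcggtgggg
MX1, at the third annotated start (chr21:41431800-41432099, plus strand): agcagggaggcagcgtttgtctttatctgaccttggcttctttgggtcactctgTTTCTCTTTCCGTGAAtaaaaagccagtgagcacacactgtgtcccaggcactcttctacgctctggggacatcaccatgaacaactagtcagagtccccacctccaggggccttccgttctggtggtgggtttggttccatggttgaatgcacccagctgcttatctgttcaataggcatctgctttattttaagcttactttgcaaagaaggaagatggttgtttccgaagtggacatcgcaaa
SAMD9L (chr7:93148336-93148635, minus strand): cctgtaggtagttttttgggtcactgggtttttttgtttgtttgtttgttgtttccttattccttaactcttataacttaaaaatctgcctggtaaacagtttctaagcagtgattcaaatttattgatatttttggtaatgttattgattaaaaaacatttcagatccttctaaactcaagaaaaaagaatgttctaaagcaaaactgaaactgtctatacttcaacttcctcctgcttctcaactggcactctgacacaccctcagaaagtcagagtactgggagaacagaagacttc

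The IFIT1 window held 2 ISRE matches, both on the opposite strand, at bases -116 to -107 and -103 to -94 from the start. The first MX1 window held 1, inside the transcript at bases 12 to 21. The third MX1 window held an ISRE match at -196 to -187 that overlaps a GAS match at -189 to -181. The GAS letters read the same on both strands. A second MX1 start, not printed, and the SAMD9L window held neither run of letters. Only a spacing of 2 bases between the GAAA runs was searched, so these windows are not shown to lack an element. A match is a run of letters and not a measured binding site. The ISRE letters were in 3.57% of all 35116 windows and the GAS letters in 7.66%.

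IFIT1 encodes a protein of the IFIT family that binds viral RNA lacking the host's cap methylation and blocks its translation. Its signal in the PD45 control libraries was 2.89, 4.25 and 4.73. In the PD30 libraries it was 14.5, 15.4 and 17.8, and with GW8510 it was 7.92, 8.39 and 13.7. The lowest PD30 library lay above the highest GW8510 library, and the lowest GW8510 library above the highest PD45 control. The mean was 15.9 ± 1.68 at PD30, 10.0 ± 3.23 with GW8510 and 3.96 ± 0.954 in the control, so that PD30 stood 4.02-fold and GW8510 2.53-fold over the control. In the authors' deposited table the folds were 4.07 (adjusted p = 1.58e-37) and 2.77 (adjusted p = 2.67e-11). In these bulk samples, fewer cells with the transcript and less transcript per cell cannot be told apart. The third GW8510 library set much of the GW8510 mean, and without it the log2 ratio was 1.04 in place of 1.34.

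PD30 and GW8510 cells were also set directly against each other for IFIT1, a contrast that the listing did not use. The libraries are those on which the gene was chosen, so the comparison is a description. PD30 was 1.59-fold higher, with no overlap between the groups (two-sided exact permutation test, p = 0.1, adjusted over 2 pairs p = 0.1). No smaller p is possible with 3 against 3 libraries. The difference in means was 5.87 signal units. These 2 groups differ at once in passage, GW8510, DMSO and NC, and the parts of these cannot be told apart. The share of all genes without overlap was not computed for this contrast.

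GBP2 encodes a guanylate-binding protein, a large GTPase of the interferon response that acts on membranes of intracellular pathogens. The PD45 control libraries had signals of 1.17, 1.66 and 2.07, which are low. The PD30 libraries had 5.97, 6.62 and 5.51, and the siSRC2 libraries 3.48, 2.39 and 4.58. The 3 groups did not overlap, with PD30 highest and the PD45 control lowest. The means were 6.03 ± 0.558 at PD30, 3.48 ± 1.10 with siSRC2 and 1.63 ± 0.451 in the control, or 3.69-fold and 2.13-fold over the control. The authors' deposited table gave a fold of 3.45 (adjusted p = 1.25e-22) for PD30 and 1.72 (adjusted p = 0.00353) for siSRC2, the latter 255th by p among 331 listed genes. PD30 was 1.73-fold above siSRC2 in a direct comparison, also a description (two-sided exact permutation test, p = 0.1, adjusted over 2 pairs p = 0.1). This too is the smallest p possible. PD30 and siSRC2 cells differ in both passage and siRNA, and the share of all genes without overlap was not computed here either. GBP2 was not among the genes listed for siSRC4 and has no value there.

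TRIM22, a RING-type ubiquitin ligase that restricts viruses and is induced by interferons and by p53, was the member lower at PD30. Its PD45 control libraries had signals of 79.5, 69.5 and 67.3, and its PD30 libraries 24.1, 28.2 and 22.4. All PD30 libraries lay far below all PD45 libraries. The means were 24.9 ± 2.99 and 72.1 ± 6.52, a 2.90-fold lower level at PD30. In the authors' deposited table TRIM22 was lower by 3.02-fold (adjusted p = 3.32e-89) and 45th by p among 2845 listed genes. The 3 members listed for PD30 thus lay on both sides of the control, with IFIT1 and GBP2 above and TRIM22 below.

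MX1 encodes a dynamin-like GTPase that traps the nucleoproteins of RNA viruses such as influenza. Its signal was low in every library, at 1.57, 1.49 and 1.28 in the PD45 control and 2.98, 2.03 and 2.83 with siSRC4. The siSRC4 libraries all lay above the control libraries. The mean was 2.61 ± 0.511 against 1.45 ± 0.15, or 1.81-fold. The authors' deposited table gave a fold of 1.74 (adjusted p = 0.00604), 994th by p among 1280 listed genes. MX1 is in no other table.

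SAMD9L encodes a cytoplasmic protein, related to SAMD9, that limits translation and cell growth and restricts poxviruses. It was the member whose groups overlapped. Each siSRC4 library lay below the control library of the same replicate number, but the labels do not say that these are pairs. The share of all listed genes with such an order was not computed. The PD45 control libraries had 5.86, 6.17 and 4.41, and the siSRC4 libraries 4.67, 3.38 and 2. The first siSRC4 library lay above the third control library. The mean was 3.35 ± 1.34 with siSRC4 and 5.48 ± 0.940 in the control, a 1.64-fold lower level. The authors' deposited table gave 1.90-fold lower (adjusted p = 1.54e-05). Single siSRC4 libraries moved the value: the log2 ratio was -0.71 with all 3, -1.03 without the first and -0.45 without the third.

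**Figure D1:**
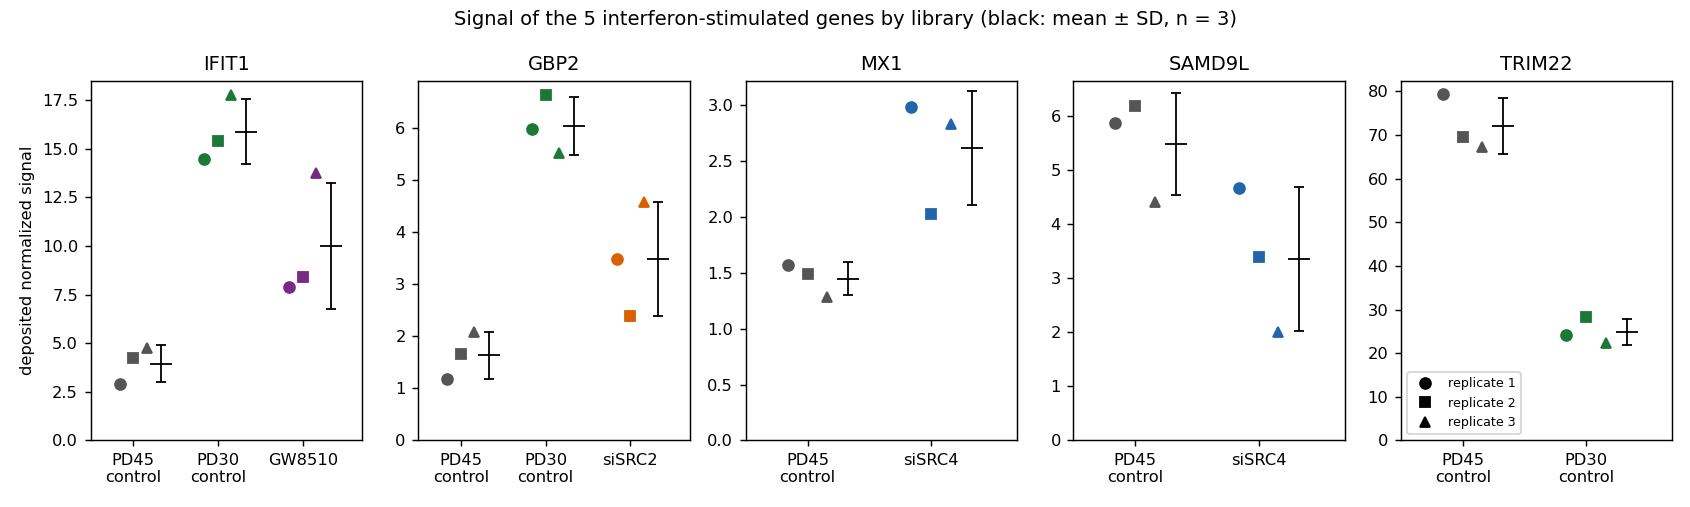
Deposited normalized signal (vertical axes, linear from 0, a scale for each gene) of IFIT1, GBP2, MX1, SAMD9L and TRIM22 by group, with a symbol for each replicate number and the mean ± SD in black (n = 3). Groups are shown only where a table lists the gene. For IFIT1 and GBP2 the PD45 control is lowest, the treated group lies between and PD30 is highest, without overlap. TRIM22 is lower at PD30, and the SAMD9L groups overlap.

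The members differed in the spread between libraries. The coefficient of variation of TRIM22 was 12% at PD30 and 9.04% in the control, near the medians of 9.71% and 12.9% over the 2258 genes listed for PD30 with a mean signal of at least 1. For IFIT1 it was 10.5% at PD30, 32.3% with GW8510 and 24.1% in the control. GBP2 had 9.24% at PD30, 31.4% with siSRC2 and 27.6% in the control. SAMD9L had 39.9% with siSRC4 and 17.1% in the control, where the medians over 1170 listed genes were 14.8% and 11.1%. MX1 lay between, at 19.5% with siSRC4 and 10.4% in the control.

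To place the 5 genes in their pathway, 153 genes in 14 lists by role were searched for in the tables, and 52 (34.0%) were listed at least once. Over all genes that share was at most 26.2%, the 4872 listed genes over 18575, the largest number tested for a single table. Shares of the lists, here and below, divide by all list genes, because which of them the authors tested is not known. Shares over all genes divide by tested genes only, so a list share may be too low beside them. None of 10 interferon ligand genes and none of 6 receptor genes was in any table. The tables carry no p-value for unlisted genes, so a count at an unadjusted threshold cannot be given. For the other 148 genes, those listed were re-tested with limma on log2(signal + 1) across each whole table. Since only genes already called by the authors enter it, the re-test adds no independent evidence.

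Among the pathway genes listed for PD30, several antiviral effectors and the feedback inhibitors SOCS1 and SOCS3 were higher. SLFN12, TRIM22, DDX60L, SP100 and SP110 were lower. Of the listed genes that serve antigen presentation, B2M, TAP1 and TAPBP were lower and PSMB9 was higher. Of the 153 genes, 29 (19%) were listed for PD30, 20 higher and 9 lower. Of all genes the authors tested 15.3% were listed, 8.24% as higher and 7.07% as lower. With these unlike denominators the share listed was not far from the background, and the difference was not tested. All 29 had groups that did not overlap, as did 93.6% of all genes in that table. The median log2 ratio of the 29 was 0.86, against 0.59 over all 2845 listed genes, and 69.0% of them were higher, against 53.8%. APOBEC3B, a cytidine deaminase that mutates viral DNA, stood at 22.8 ± 2.89 against 2.23 ± 0.0709, or 10.2-fold. ISG20, an exonuclease, was 3.01-fold higher and APOBEC3G 2.09-fold. SLFN11, a Schlafen protein that acts on tRNA, was 1.76-fold higher, while its relative SLFN12 was 3.69-fold lower (2.35 ± 0.0635 against 8.67 ± 0.771).

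The listed RNA sensors, IFIH1 and TLR3, were higher and low in signal. IFIH1, which encodes MDA5, stood at 1.21 ± 0.335 against 0.447 ± 0.0751. OAS3, which makes the activator of RNase L, stood at 1.19 ± 0.271 against 0.430 ± 0.0854, and IFI44 at 1.21 ± 0.351 against 0.300 ± 0.373. For OAS3 and IFI44 the authors' deposited folds, 6.79 and 10.8, were above the signal ratios of 2.78 and 4.02. For IFIH1 the deposited fold of 2.11 was below its ratio of 2.70. Another 4 genes were listed with both means below 1 (IFI44L, MX2 and TLR3 higher, CXCL10 lower). SOCS1 and SOCS3, which block JAK kinases, were 3.89-fold and 2.84-fold higher. USP18, which removes ISG15 and dampens receptor signalling, was 1.63-fold higher. IFI35 and NMI, partner proteins, were 2.02-fold and 1.82-fold higher, PLSCR1 1.72-fold and TRIM34 1.74-fold. Of the nuclear body genes, SP100 was 1.49-fold and SP110 1.34-fold lower, and the helicase gene DDX60L was 1.55-fold lower.

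Of 19 antigen-presentation genes 4 were listed for PD30, 3 lower and 1 higher, beside 7.07% and 8.24% of all tested genes, and the rest have no value here. B2M, the light chain of class I molecules, stood at 2321 ± 165 against 3647 ± 121. TAP1, of the peptide transporter, and TAPBP, which encodes tapasin, were both 1.73-fold lower. PSMB9, an immunoproteasome subunit, was 1.76-fold higher. All 19 genes other than the members that entered the limma re-test passed it, 12 higher and 7 lower, with adjusted p from 1.27e-07 to 0.00470. OAS3, IFIH1 and IFI44, like the 4 with both means below 1, averaged under 1 over the 6 libraries and did not enter it. Of all genes re-tested in that table, 97.3% passed.

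**Figure D2:**
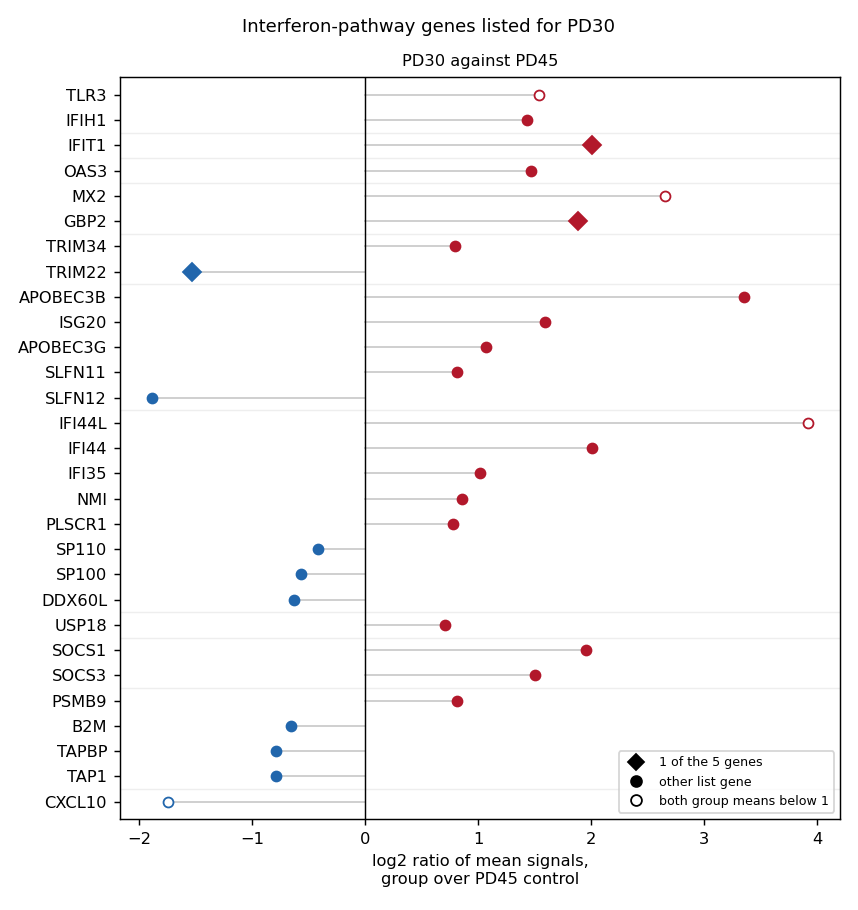
Log2 ratio of mean signals, PD30 over the PD45 control (horizontal axis), for the 29 interferon-pathway genes the table lists, ordered by role. Diamonds are IFIT1, GBP2 and TRIM22, circles the other genes, open symbols genes with both group means below 1, red higher and blue lower. Antiviral effectors and SOCS genes lie mostly to the right, as does PSMB9, and B2M, TAP1, TAPBP, SLFN12 and TRIM22 to the left.

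With GW8510, IFIT1 was one of few listed genes of the pathway that were higher. Of the 153 genes 19 (12.4%) were listed, 6 higher and 13 lower, where 11.8% of all tested genes were listed, 4.59% as higher and 7.26% as lower. The groups did not overlap in any of the 19, and in 90.6% of all genes in the table. Their median log2 ratio was -0.78, and that of all 1845 listed genes was -0.72, so the list leaned lower about as far as the table did. SOCS1 and SOCS3 were higher here too, at 9.40 ± 3.44 against 3.95 ± 0.480 and at 27.0 ± 3.70 against 13.7 ± 1.06. TRIM21, an antibody receptor in the cytosol, was 1.58-fold higher, APOBEC3B 1.83-fold and PARP12 1.44-fold.

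With GW8510, 2 of 13 genes of nucleic acid sensing and 3 of 19 of antigen presentation were listed, all as lower, beside 7.26% of all tested genes. IFI16, a DNA sensor, stood at 16.7 ± 2.17 against 36.2 ± 3.83, and TBK1, the kinase below several sensors, at 7.68 ± 2.08 against 13.7 ± 0.157. GBP3, a relative of GBP2, stood at 30.0 ± 2.68 against 59.9 ± 3.58. SAMD9, the relative of SAMD9L, was low in signal at 0.847 ± 0.155 against 1.66 ± 0.255. JAK2, a kinase of type II interferon signalling, was 1.82-fold lower. B2M was 1.72-fold lower, and ERAP1 and ERAP2, which trim peptides for class I molecules, were 1.61-fold and 1.85-fold lower. UBA7, the enzyme that activates ISG15, was 1.73-fold lower, PARP14 1.64-fold, SP100 1.61-fold and DDX60 2.43-fold. CXCL10, a chemokine, was listed as lower with both means below 1. All 16 genes other than IFIT1 that entered the limma re-test passed it, 5 higher and 11 lower, with adjusted p from 4.33e-05 to 0.00815, where 95.4% of all genes did. DDX60 and CXCL10 averaged under 1 and did not enter. The authors' log2 fold changes lay above the log2 signal ratios by a median of 0.12 in this table, and no listed pathway gene changed sign between the scales.

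With siSRC2, GBP2 was 1 of 2 pathway genes listed, a share of 1.31% where 2.64% of all tested genes were listed, 1.38% as higher and 1.26% as lower. The other was IFIT2, an IFIT family member, at 1.51 ± 0.0874 against 2.56 ± 0.0709, a 1.69-fold lower level (limma, adjusted p = 0.00181, where 95.5% of all genes re-tested passed). Neither gene's groups overlapped, as was so for 90.6% of all genes in the table.

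With siSRC4, most listed genes of the pathway were lower, and MX1 was an exception. IRF2, a transcription factor that competes with IRF1 at the ISRE, stood at 4.19 ± 0.598 against 9.57 ± 1.68. Of the 153 genes 14 (9.15%) were listed, 2 higher and 12 lower, where 8.77% of all tested genes were listed, 3.91% as higher and 4.86% as lower. The groups did not overlap in 13 of the 14, SAMD9L being the exception, and in 88.8% of all genes in the table. With these unlike denominators the share listed was near the background. The share higher among the 14 was 14.3%, against 44.6% of all 1280 listed genes. The median log2 ratio was -0.66, against -0.54 over the table. The 2 higher genes were MX1 and HELZ2, a helicase and nuclear receptor coactivator (8.34 ± 0.449 against 5.15 ± 1.17).

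EPSTI1, an interferon-induced gene active in stromal cells, was 2.61-fold lower with siSRC4 (1.30 ± 0.143 against 3.41 ± 0.660). DDX58, the older name of the RNA sensor gene RIGI, was 1.47-fold lower, and IFIT3, a partner of IFIT1, 1.55-fold. SLFN12 and SLFN5 were 2.10-fold and 1.55-fold lower, and DDX60 and DDX60L 1.68-fold and 1.71-fold. TDRD7, which limits autophagy used by viruses, was 1.47-fold lower, and PSMB9 1.52-fold. All 12 genes other than the members passed the limma re-test, 1 higher and 11 lower, with adjusted p of at most 0.0289, where 93.7% of all genes did. DDX58, DDX60 and SLFN5 were the ones that lost their call when a library was left out. DDX58 lost it without the second siSRC4 library (adjusted p = 0.0795), the third (adjusted p = 0.0519) or the second control library (adjusted p = 0.0743, limma). DDX60 lost it without the second or the third siSRC4 library (adjusted p = 0.0798 and 0.0906, limma), and SLFN5 without the first control library (adjusted p = 0.0577, limma). Without the first or the second control library DDX60 averaged under 1 and did not enter the re-test. Losses were table-wide in these settings. Without the second or the third siSRC4 library, 84.9% and 88.2% of all genes passed. Without the first or the second control library, 84.8% and 84.5% did.

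The siSRC4 libraries were not alike. Of the 12 lower genes, SAMD9L among them, 9 were highest in the first siSRC4 library and 8 lowest in the third. Over all 709 genes listed as lower for siSRC4, 65.2% were highest in the first library and 59.1% lowest in the third, so this order was shared with the whole table. MX1 and HELZ2, which were higher, had their highest siSRC4 signal in the first library. Over all 571 genes listed as higher, 38.7% were highest in the first library, 39.6% in the second and 21.7% in the third. The part of these library differences in the results was not tested.

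**Figure D3:**
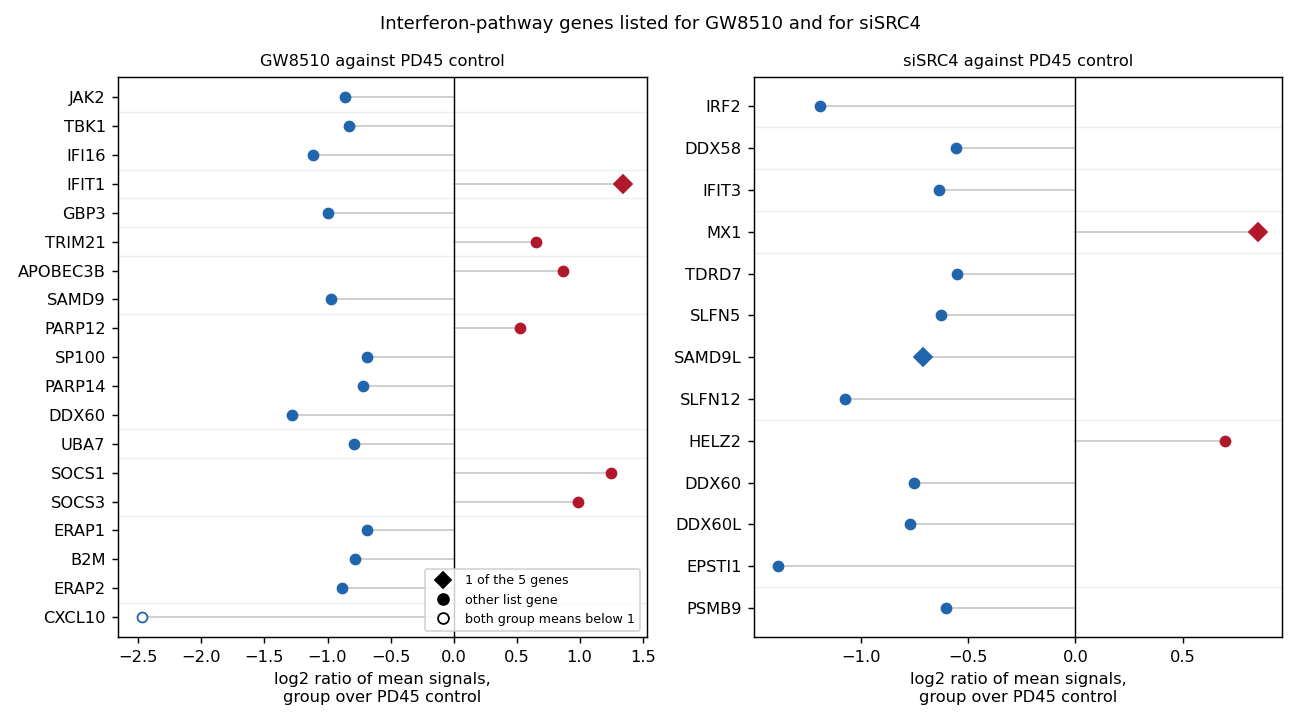
Log2 ratio of mean signals over the PD45 control (horizontal axes) for the interferon-pathway genes listed for GW8510 and for siSRC4 that are reported here, ordered by role. Diamonds are IFIT1 with GW8510 and MX1 and SAMD9L with siSRC4, the open circle has both group means below 1, red is higher and blue lower. Most genes lie to the left in both panels, and IFIT1 and MX1 to the right.

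**Figure D4:**
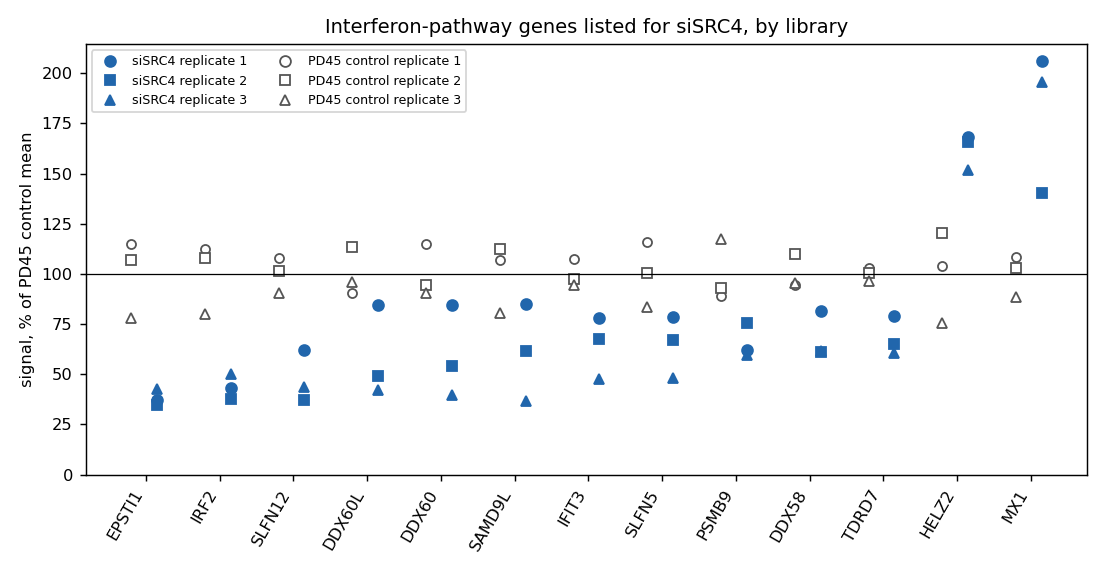
Signal in each library of the pathway genes listed for siSRC4 that are reported here, as a percentage of the PD45 control mean of the gene (vertical axis, from 0). Filled symbols are the siSRC4 libraries and open symbols the control libraries, with a shape for each replicate number. The first siSRC4 library lies nearest the control for most of the lower genes, and for SAMD9L it lies above the third control library.

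Several pathway genes were in more than 1 table. These comparisons share the PD45 control libraries, so their folds are given side by side and nothing is counted from them. SOCS1 stood at 15.4 ± 3.97 at PD30 and 9.40 ± 3.44 with GW8510, over a control of 3.95 ± 0.480. APOBEC3B stood at 22.8 ± 2.89 and 4.07 ± 0.555 in the same groups. B2M was 1.57-fold lower at PD30 and 1.72-fold lower with GW8510. SLFN12 was 3.69-fold lower at PD30 and 2.10-fold lower with siSRC4. PSMB9 was 1.76-fold higher at PD30 and 1.52-fold lower with siSRC4. No member of the IFIT family was listed for both siRNAs, and IFIT2 and IFIT3 were each listed for 1.

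ISRE letters were common in the promoters of the pathway lists as a whole. Of 116 list genes with a window, 50% held a match in at least 1 window, against 4.38% of all 27305 genes with a window. Matches to the GAS letters were in 24.1%, against 9.38%. Many of these genes are known by their response to interferon, so the difference describes the lists and not the samples. Among genes with a window, ISRE letters were in 11 of 15 listed as higher at PD30 and 5 of 8 listed as lower. The counts were 4 of 5 higher and 8 of 12 lower with GW8510, and 1 of 2 higher and 4 of 9 lower with siSRC4. Both directions thus held matches in each of the 3 comparisons. Of 41 listed genes with a window, 11 held neither element, SAMD9L among them.

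**Figure D5:**
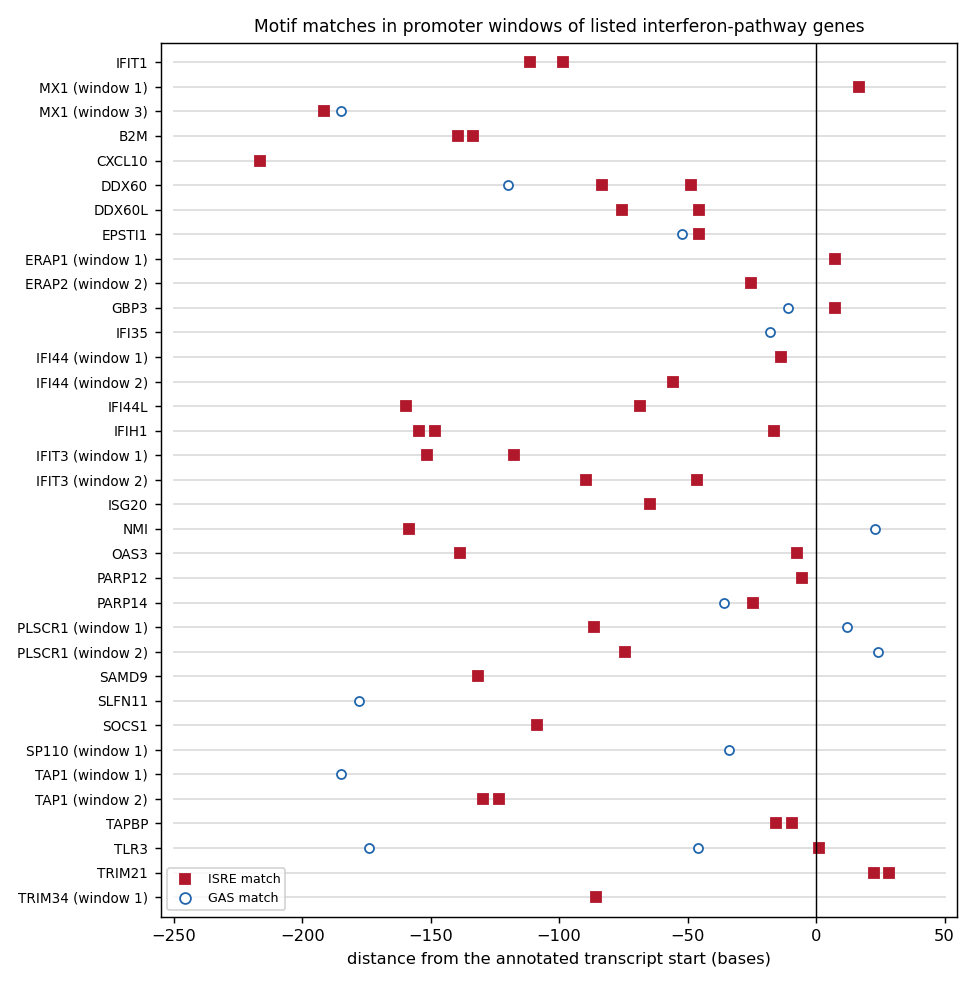
Position of ISRE matches (filled squares) and GAS matches (open circles) in promoter windows of the listed pathway genes, as the distance in bases from the annotated start (horizontal axis). Each grey line is a window with at least 1 match, numbered where a gene has several, and windows with none, such as that of SAMD9L, are not drawn. IFIT1 has 2 ISRE matches before the start, and the first MX1 window has 1 just after it.

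The genes whose signal followed each member most closely were found by Pearson's r of log2(signal + 1) among genes in the same tables. These points are the same libraries and carry the group difference that put every gene in the table, so the values are descriptions. IFIT1, over 9 libraries and 526 genes, was closest to PKMYT1, a kinase that inhibits entry into mitosis (r = 0.985), and to SOCS3 (r = 0.984). GBP2, over 9 libraries and 144 genes, was closest to FGL2, a fibrinogen-like protein (r = 0.964), and to COL3A1 (r = 0.956). Over 6 libraries, SAMD9L was closest to IL6ST, a shared cytokine receptor chain (r = 0.998), and to SMC6 (r = 0.996). MX1 was closest to IL1RAP, a chain of the interleukin-1 receptor (r = 0.993), and to LINC01503 (r = 0.990). Genes with r above 0.95 were 18 of 526 for IFIT1, 6 of 144 for GBP2, 97 of 1169 for SAMD9L and 16 of 1169 for MX1. TRIM22 was closest to the p53 target RRM2B and the sterol enzyme gene SC5D (r = 0.998 for each), among 550 of 2257 genes with r above 0.95. So many close genes leave little that sets its nearest ones apart.

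SRC signal lay between 18.9 and 20.5 in the PD45 control libraries, between 10.6 and 11.6 with siSRC2 and between 9.51 and 11.8 with siSRC4. Of 9 fibroblast markers, 3 were listed for PD30 (COL3A1, VIM and PDGFRA), all higher. COL3A1 was at 361 to 397 at PD30, 182 to 236 with GW8510 and 201 to 252 with siSRC2, against 108 to 122. Of 8 immune cell markers only CD68 was listed, for GW8510, at 25.3 to 31.0 against 44.3 to 54.7. PTPRC and CD14 have no value here, so a summed level of immune markers cannot be given. Of 5 endothelial markers only TEK was listed, at 28.8 to 31.4 at PD30 and 11.6 to 14.1 with siSRC2, against 6.22 to 8.53 in the control. In these groups GBP2 and COL3A1 were also higher and KRT19 was lower. Of 5 epithelial markers 3 were listed for PD30, all lower. They were KRT8 (7.31 to 7.58 against 13.2 to 15.5), KRT18 (14.1 to 16.4 against 25.4 to 26.0) and KRT19. KRT19 was at 29.1 to 32.8 at PD30, 204 to 251 with GW8510 and 72.3 to 75.1 with siSRC2, against 123 to 148. The part of these in the results was not tested. IFIT, GBP, MX, Schlafen, APOBEC3 and SAMD9 genes have close relatives, and how reads shared between relatives were counted is not given in the sources used here, so their levels are uncertain.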

How the data were processed

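RNA sequencing of 15 libraries was deposited as 4 tables, each setting 1 group against the PD45 control. Rows give, per the file headers, the authors' fold ratio, log2 fold change, p-value and adjusted p-value, and an expression signal per library. The signal is the authors' normalized value with 2 decimals, and its unit is not given in the sources used here. Tools named in the submitters' processing notes, with no role, are HISAT2, StringTie, RSEM, CASAVA, edgeR and DESeq2, and the build is GRCm38, a mouse assembly, although the gene identifiers are human, so no coordinates were taken from the files. Control values were identical in all 1429 entries that tables share. Depth is unknown, so no counting interval is given.

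Means, SD and ratios were computed with Python 3.11.15 and pandas 2.3.3. Listed genes whose mean signal over 6 libraries reached 1 were re-tested with limma 3.58.1 (R 4.3.3) on log2(signal + 1), a pseudocount of 1, with a mean-variance trend and Benjamini-Hochberg adjustment over the table at 0.05. The number of genes tested by the authors is the ratio of the deposited adjusted p-value to the p-value in the first row, taken as the smallest p. The limma script was run on simulated data in which only part of the genes changed. The deposited tables hold only called genes, so that run does not show how the re-test behaves on them. Whether libraries of a group are separate cultures is not in the labels. The p-values therefore rest on a spread that may be technical.

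The members and the gene lists were chosen with earlier results of these data known. Genes are named if they are members, or are on the pathway lists with a group mean of at least 1, or are the 2 closest to a member by correlation. The 4 PD30 genes and CXCL10 with GW8510 below that limit were named after their values were seen. Replicate numbers are in the titles. The labels do not say that same-numbered libraries are pairs. Deviations from the group mean correlated weakly between same-numbered siSRC4 and control libraries, at 0.122, 0.107 and 0.136 over 1170 genes. Libraries of unlike number had -0.102 to -0.0175. With siSRC2 the same-numbered values were 0.0891, 0.0883 and 0.218 over 310 genes, and those of unlike number -0.135 to 0.0715. For GW8510 they were 0.107, 0.024 and 0.04, and -0.19 to 0.137. For PD30 they were 0.0102, -0.0316 and -0.112, and -0.0714 to 0.0939. These values do not settle whether same-numbered libraries are pairs. Member signals were compared by number for siSRC4 alone, and the main limma re-test used no pairs in any comparison. A gene of the lists is counted in the totals but not reported here by name.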

Additional observations from a re-analysis of the deposited data

How the results depend on the processing

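All 7 member entries kept their direction under every setting tried: a difference of mean log2(signal + 1), medians, the authors' log2 fold change, and each library left out. On the log2(signal + 1) scale the value was smaller by more than 1 SD for GBP2 at PD30 (1.43 against 1.89) and for MX1 with siSRC4 (0.55 against 0.85), as a pseudocount does to low signals. With a library left out, log2 ratios ran from 1.82 to 2.15 for IFIT1 and 1.69 to 2.09 for GBP2 at PD30, -1.63 to -1.46 for TRIM22, 1.04 to 1.49 for IFIT1 with GW8510, 0.85 to 1.30 for GBP2 with siSRC2, 0.75 to 1.01 for MX1 and -1.03 to -0.45 for SAMD9L. The direct comparisons ran from 0.52 to 0.96 (IFIT1) and 0.58 to 1.04 (GBP2), under alternatives chosen after seeing the data. The number of pathway genes passing the limma re-test with a library left out was 19 for PD30, 16 to 17 for GW8510, 1 for siSRC2 and 10 to 12 for siSRC4. Of all genes re-tested, 94.7% to 95.8%, 89.7% to 93.4%, 91.4% to 93.9% and 84.5% to 94.8% passed in these settings, in the same order. The replicate block gave the same 19, 16, 1 and 12 passing genes and changed no call. Of 478 re-test values for single genes under other settings, 472 kept their side of the threshold and 6 lost it, all for siSRC4. Settings in which a gene averaged under 1 gave no value and are not counted, as for DDX60 with siSRC4 without the first or the second control library. The shorter ISRE letters GAAANNGAA matched the same 2 members. The low signal of GBP2, MX1 and several sensors and the unknown depth limit what can be said of them.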
